A study of Saccharomyces cerevisiae W303 with 28 samples.

Results

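Chromatin immunoprecipitation sequencing (ChIP-seq) of the cohesin subunit Scc1 was compared between budding yeast lacking Rad17 with a degron allele of Pds5 (rad17 pds5-AID) and yeast lacking Rad17 alone (rad17). The members were the libraries whose titles name one of these genotypes: 2 immunoprecipitates (IP) and their 2 whole-cell extracts of rad17 pds5-AID, and 2 IPs and 2 extracts of rad17, so 8 of the 28 libraries in the series. All 4 IPs came from cells that carried HA-tagged Scc1, had received nocodazole, which removes microtubules and holds cells in mitosis, and were collected 4 h after galactose addition had started the induction of a site-specific DNA double-strand break. Both genotypes thus lack Rad17 and both were cut, and by their labels they differ by the pds5-AID allele. Their extracts also differed by over 1.5-fold in 5 windows, on chromosomes 3, 4 and 12, which are described at the end. By its label each genotype is 1 strain. Auxin, which triggers loss of a degron-tagged protein, is not named in the labels, and how far Pds5 was depleted is unknown. It is also not stated whether the replicates were separate cultures, so the p-values reflect a spread that may be technical. The same HA tag in pds5-AID and in wild-type cells, also cut and under nocodazole (2 IPs each), allowed the difference with the pds5-AID allele to be set beside the one measured with Rad17 present. Wild-type cells with an uncleavable site (1 IP) and an untagged strain (1 IP) gave the level without a break and the background. No mutant was measured without a break.

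Cohesin is a ring that holds sister chromatids together and also forms chromatin loops, and Scc1 is the subunit that closes the ring. Pds5 binds the ring and governs both its stable hold on DNA and its release by Wapl, and in yeast it limits how far loops are extended. Rad17 is part of the checkpoint clamp that is loaded at damaged DNA and activates the Mec1 kinase, and cohesin is known to be enriched around a break. In undamaged mitotic yeast, cohesin is densest around centromeres, and on the arms it sits at discrete sites, mostly where convergent genes meet. The labels do not say which question this pair of strains was to answer, but the series concerns cohesin in the search for homologous DNA.

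Signal was deposited per window of 1 kb, and each IP was divided by its own extract, which was first set relative to its median. A level below is log2 of that ratio. A value called centred has the library's own median over all kept windows subtracted, so it shows where a library is high or low within itself and cannot show a change of the whole genome. For a region, a mean in which high windows weigh most is set against this median of single windows. A centred region below 0 thus need not hold lower typical windows, and shares of centred regions carry the same offset. Differences are always rad17 pds5-AID minus rad17 unless another pair is named. Median IP coverage per window was about 27.2 and 74.5 reads in rad17 pds5-AID and 49.9 and 65.8 reads in rad17, and median extract coverage was 75.9 and 55.9 in rad17 pds5-AID and 63.2 and 53.1 in rad17. Across 11638 kept windows, Pearson's r was 0.973 between the rad17 pds5-AID replicates and 0.981 between the rad17 replicates, and 0.914 to 0.925 between libraries of different genotypes.

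Scc1 was lower over the whole genome when the pds5-AID allele was present in rad17 cells. The median level was 2.65 and 2.89 in rad17 pds5-AID libraries, against 3.38 and 3.68 in rad17 libraries. Both rad17 pds5-AID libraries lay below both rad17 libraries. The means were 2.77 ± 0.17 in rad17 pds5-AID and 3.53 ± 0.21 in rad17 (SD, n = 2 each), a difference of -0.76, or 59.0% of the rad17 signal. The two-sided exact permutation p was 0.33, the smallest that 2 libraries against 2 can give, so this single value cannot pass a threshold of 0.05. IP alone, without division by the extract, gave the same difference of -0.76.

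The untagged strain showed how much of that signal was background. Its median level was 1.00. Signal in rad17 pds5-AID stood 3.13-fold and 3.71-fold above it, and in rad17 5.20-fold and 6.41-fold. After the untagged signal was subtracted window by window, the difference was -0.997, or 50.1% of rad17. This statement rests on 1 untagged library.

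**Figure D1:**
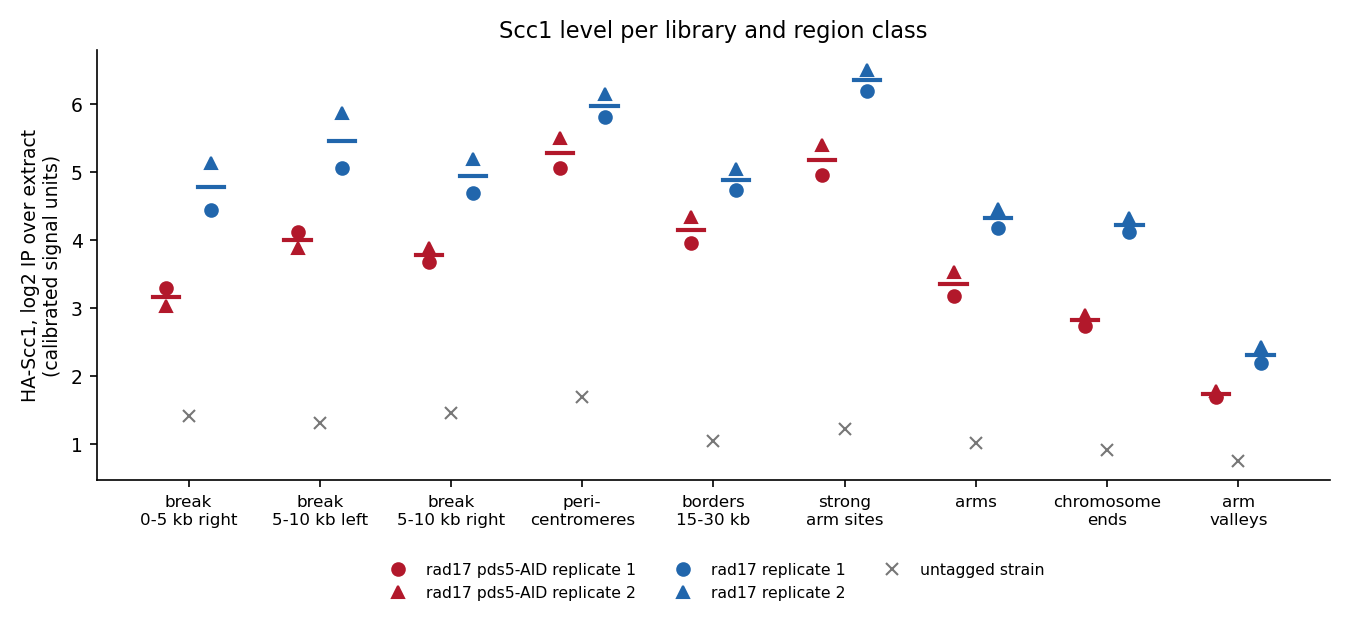
Level of HA-Scc1 (log2 of IP over extract, vertical axis) in classes of regions, with rad17 pds5-AID in red on the left and rad17 in blue on the right of each pair; circles are replicate 1, triangles replicate 2, bars the mean of 2 libraries and grey crosses the untagged strain. Both red symbols lie below both blue ones in every class shown, and the gap is narrowest in arm valleys, at -0.57.

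Single windows followed the genome level. Of 11638 windows, 6888 were lower in rad17 pds5-AID and 2 were higher (limma, Benjamini-Hochberg adjusted p under 0.05), that is 59.2% and 0.0172% of those tested. The difference was below 0 in 98.8% of windows, with a median of -0.78. After centring, 1388 windows were lower, 11.9%, and 405 were higher, 3.48%. With windows of 5 kb that balance turned round, and 455 were lower and 733 higher. Those windows were centred on the median of the 5 kb values, so the zero point changed as well. IP alone called 8267 lower windows (71%) and 3 higher ones (0.0258%), and after centring 2351 lower (20.2%) and 1264 higher (10.9%). Of the centred calls over extract, 98.6% of the lower and 96.8% of the higher ones also passed with IP alone. The uncentred count of 6890 calls rests on 2 libraries: it was 2277 without rad17 pds5-AID replicate 1 and 2109 without rad17 replicate 2. Centred calls numbered 612 without rad17 pds5-AID replicate 1, 904 without its replicate 2, 679 without rad17 replicate 1 and 585 without its replicate 2, against 1793 with all libraries.

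Next to the break, in the classes of 5 to 10 kb, Scc1 in rad17 pds5-AID was 36.4% of that in rad17 on the left side and 44.9% on the right side. At 5 to 10 kb left of the cut the level was 4.12 and 3.88 in rad17 pds5-AID, against 5.05 and 5.87 in rad17. The difference was -1.46 ± 0.27 (SE; limma over 113 regions, adjusted p = 7.41e-07). At 5 to 10 kb right the level was 3.68 and 3.88 in rad17 pds5-AID and 4.69 and 5.18 in rad17, a difference of -1.15 ± 0.27 (limma, adjusted p = 9.21e-05). In both classes both rad17 pds5-AID libraries lay below both rad17 libraries. The p-values above use 1 spread shared by all regions. With each region's own spread they were 0.0434 on the left and 0.0478 on the right (limma, adjusted p). Extract coverage is low here, and 2 of the 5 windows at 5 to 10 kb left and all 5 windows at 0 to 5 kb right passed the coverage filter only through the uncut extract. With the filter set on the 8 cut libraries alone, 5 to 10 kb left, then of 3 windows, differed by -1.48 (limma, adjusted p = 5.06e-07), 5 to 10 kb right kept its windows and its value, and 0 to 5 kb right dropped out. That last class is therefore given as a description, at 3.29 and 3.04 in rad17 pds5-AID and 4.44 and 5.13 in rad17, a difference of -1.62. The class at 0 to 5 kb left had too few windows that passed.

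The uncut wild-type strain gives the level of this DNA without a break. It stood at 4.20 at 5 to 10 kb left, 3.27 at 5 to 10 kb right and 3.62 at 0 to 5 kb right (n = 1). Coverage of the uncut extract varied more from window to window, and its SD on the log2 scale was 0.736, against 0.219 and 0.234 in rad17 pds5-AID and 0.233 and 0.246 in rad17. The rad17 pds5-AID libraries lay below the uncut level on the left and at 0 to 5 kb right, and above it at 5 to 10 kb right. The rad17 libraries lay above it in all 3 classes. The uncut library also had a higher genome level, 3.97, than the rad17 pds5-AID libraries, 2.65 and 2.89. Set over the arms of the same library, uncut wild type stood at -0.42, -1.35 and -0.999, in the order given above. On that scale rad17 pds5-AID stood higher in all 3 classes, at 0.93 and 0.35, 0.50 and 0.35, and 0.11 and -0.49. The rad17 libraries were above uncut wild type there as well. Cells without Rad17 were not measured uncut, so a break-induced gain could not be computed for either mutant.

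Farther out, the difference was uneven. On the left, the class of 10 to 20 kb differed by -1.17, that of 20 to 30 kb by -0.68, that of 30 to 50 kb by -1.03, that of 50 to 75 kb by -1.27 and that of 75 to 100 kb by -0.96. On the right, the same classes differed by -0.65, -0.88, -0.68, -1.003 and -0.92. All 13 distance classes, 0 to 5 kb right included, passed the test as lower in rad17 pds5-AID, and so did 97.3% of the 113 regions, so this count does not set the break apart. With IP alone all 13 passed again, beside 98.2% of regions. Without rad17 pds5-AID replicate 1, or without rad17 replicate 2, 8 of the 13 passed, and both classes at 5 to 10 kb were among them. The pericentromere of chromosome 5 lies inside the classes from 20 to 75 kb right of the break.

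Relative to the window median of the library, 8 of the 13 classes were lower in rad17 pds5-AID, against 56.6% of all regions. The centred difference was -0.70 ± 0.18 for 5 to 10 kb left and -0.39 ± 0.10 at 5 to 10 kb right (limma, adjusted p = 0.00763 and 0.00896), and 0 to 5 kb right stood at -0.86. The other lower classes on the left were those of 10 to 20 kb, with -0.41, 30 to 50 kb, with -0.27, 50 to 75 kb, with -0.51, and 75 to 100 kb, with -0.20, and on the right that of 50 to 75 kb, with -0.24. Leaving out 1 of the 8 cut libraries at a time ended the call in 2 cases for 30 to 50 kb left (-0.31 to -0.24), in 5 for 75 to 100 kb left (-0.24 to -0.16) and in 3 for 50 to 75 kb right (-0.30 to -0.18). Pooled over 5 to 50 kb on both sides the centred difference was -0.03 and did not pass the test. Without rad17 pds5-AID replicate 2 the value at 5 to 10 kb left was -0.46 and missed the threshold (limma, adjusted p = 0.0507). Set over the arms of the same library, this class stood by 0.93 and 0.35 in rad17 pds5-AID, against 0.87 and 1.40 in rad17, so the groups overlapped. At 5 to 10 kb right the excess over the arms was 0.50 and 0.35 in rad17 pds5-AID and 0.51 and 0.72 in rad17, and at 0 to 5 kb right 0.11 and -0.49 in rad17 pds5-AID and 0.26 and 0.66 in rad17, without overlap. Two-sided exact permutation p-values were 0.67 for the left class and 0.33, the smallest possible, for both right classes.

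The centred difference next to the break depended on the extract. With IP alone its size was -0.33 for 5 to 10 kb left, -0.26 at 5 to 10 kb right and -0.30 at 0 to 5 kb right, and none of the 3 passed (limma, adjusted p = 0.0737, 0.151 and 0.211). The uncentred differences of IP alone at 5 to 10 kb, -1.09 on the left and -1.02 on the right, did pass (limma, adjusted p = 9.37e-05 and 0.000239). Break ends are resected, and the extracts showed less DNA there. Within 5 kb of the cut, 23.2% and 22.2% of the uncut coverage was left in rad17 pds5-AID extracts, against 16.5% and 11.7% in rad17 extracts. At 5 to 10 kb it was 38.6% and 30.8% in rad17 pds5-AID and 31.3% and 27.2% in rad17, and at 10 to 15 kb 62.2% and 54.5% in rad17 pds5-AID and 56.4% and 52.4% in rad17. The ranges of the genotypes overlapped at 5 to 10 and 10 to 15 kb and did not overlap within 5 kb. The higher extract coverage of rad17 pds5-AID enters the ratio as a lower level. With IP alone, 5 of 13 classes were lower after centring, beside 57.5% of regions, and 10 to 20 kb right was higher at 0.22 (limma, adjusted p = 0.0254), beside 6.19%.

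**Figure D2:**
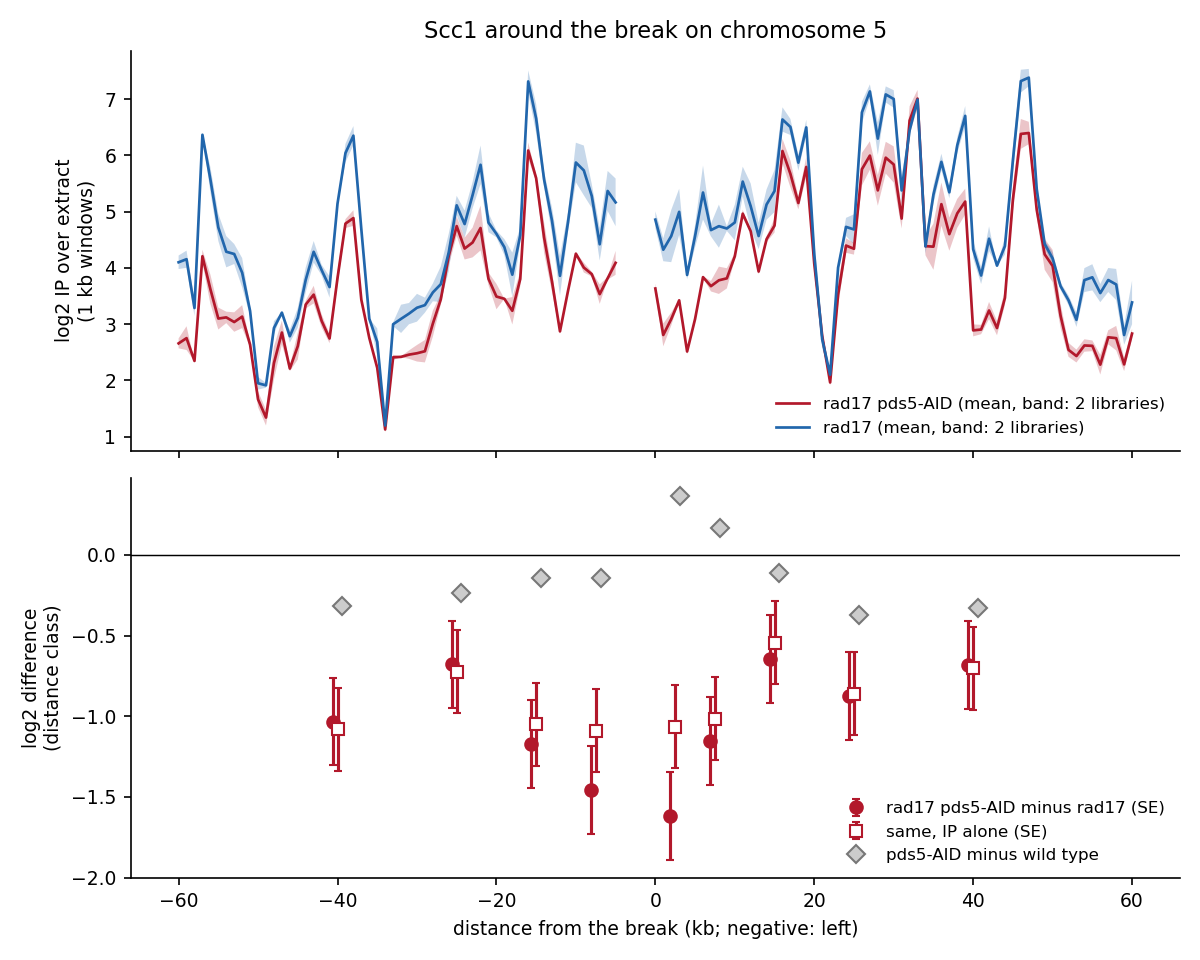
Upper panel: level of HA-Scc1 (log2 of IP over extract) in 1 kb windows against distance from the break (kb). Lines are the mean and bands the range of 2 libraries for rad17 pds5-AID (red) and rad17 (blue). Windows that failed the coverage filter are left blank. The 5 windows drawn at 0 to 5 kb right, and 2 at 5 to 10 kb left, passed it only through the uncut extract. Lower panel: log2 difference per distance class for rad17 pds5-AID minus rad17 over extract (filled circles, SE), for the same pair with IP alone (open squares, SE) and for pds5-AID minus wild type (grey diamonds); the filled circles lie below 0 throughout and the diamonds are at 0.36 and 0.16 in the classes within 10 kb right of the break.

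With Rad17 present, the pds5-AID allele went with a different value next to the break. At 5 to 10 kb left, pds5-AID libraries stood at 6.31 and 7.09 and wild type at 6.66 and 7.02, a difference of -0.14. At 5 to 10 kb right pds5-AID stood at 6.03 and 6.83 and wild type at 6.12 and 6.41, a difference of 0.16. At 0 to 5 kb right pds5-AID stood at 5.86 and 6.57 and wild type at 5.65 and 6.05, a difference of 0.36. None of these 3 differences passed the test, and the libraries of the groups overlapped in all 3 classes.

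The difference between the 2 differences was itself tested, and they share no library. This value was -1.32 ± 0.38 for 5 to 10 kb left and -1.32 ± 0.38 at 5 to 10 kb right (limma, adjusted p = 0.0252 for both), and 0 to 5 kb right, where windows were kept only through the uncut extract, stood at -1.98. These 3 classes were the only calls among 113 regions, 2.65%. With the filter on the 8 cut libraries, no region was called before centring, and 5 to 10 kb gave -1.21 on the left and -1.32 on the right (limma, adjusted p = 0.0953 and 0.0701). After centring, 7 regions were called, 6.19%, all of them break classes. They were the same 3 classes, with -1.14, -1.14 and -1.81, and the left classes of 10 to 20 kb, with -0.86, 30 to 50 kb, with -0.54, 50 to 75 kb, with -0.48, and 75 to 100 kb, with -0.59. With the filter on the cut libraries the same classes but 0 to 5 kb right passed. In the fit used here, no pericentromere, border, arm or chromosome end was called on either scale, nor was any break class beyond 10 kb on the right. Among single windows, 2 of 11638 were called, 0.0172%, and 1 after centring, 0.00859%. Both scales called chromosome 13, 754001 to 755000, described with the single sites, and the other was chromosome 5, 121001 to 122000, 2 kb right of the break. This chromosome 5 window was kept only through the uncut extract.

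These calls were not all stable. The extract of wild-type replicate 2 also varied more between windows, with an SD of log2 coverage of 0.460. With IP alone the uncentred differences of differences were -0.99 at 5 to 10 kb left, -0.89 at 5 to 10 kb right and -1.23 at 0 to 5 kb right, and none passed (limma, adjusted p = 0.256, 0.417 and 0.0931). Nor did these 3 pass after centring with IP alone, at -0.78, -0.68 and -1.01 (limma, adjusted p = 0.0551, 0.0884 and 0.0665). After centring, the left classes from 10 to 100 kb that were called over extract were also called with IP alone, at -0.62, -0.42, -0.50 and -0.49 (limma, adjusted p = 0.0165, 0.0176, 0.0176 and 0.0165). The uncentred calls at 5 to 10 kb on either side did not pass in 6 of 8 cases, all but those without rad17 replicate 1 and without pds5-AID replicate 1. Their values were -1.72 to -0.91 on the left and -1.72 to -0.92 on the right, with adjusted p-values of up to 0.991 (limma). After centring, 5 to 10 kb right kept its call without each library, and 5 to 10 kb left lost it without wild-type replicate 1, at -1.06 (limma, adjusted p = 0.0945), and with the untagged signal subtracted, at -1.13 (limma, adjusted p = 0.06).

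The cohesin maximum of each chromosome served as a proxy for its centromere and was not checked against a centromere map. On chromosome 16 it lay at 858001 to 859000 of 987 kb. The pericentromere, border and arms named for chromosome 16 may therefore be misplaced. Around these maxima, Scc1 was lower in rad17 pds5-AID to about the same degree as in the median window. No pericentromere passed the test after centring. Pooled over 16 pericentromeres, 15 kb to each side of the cohesin maximum, the level was 5.06 and 5.50 in rad17 pds5-AID, against 5.81 and 6.14 in rad17. The difference was -0.69 ± 0.27, 62.0% of rad17 (limma, adjusted p = 0.0138). It was -0.52 without rad17 replicate 2 and -0.47 without rad17 pds5-AID replicate 1, where it missed the threshold (limma, adjusted p = 0.161 and 0.203). All 16 pericentromeres were lower, beside 97.3% of all regions, with differences of -0.88 to -0.55 and a median of -0.69. Chromosome 7 had the lowest value, -0.88, and chromosome 14 the highest, -0.55. None of the 16 passed without rad17 pds5-AID replicate 1 or without rad17 replicate 2. Over the arms of the same library, pericentromeres stood by 1.88 and 1.98 in rad17 pds5-AID, against 1.63 and 1.68 in rad17, without overlap. The difference was 0.28 with a two-sided exact permutation p of 0.33, the smallest possible.

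Centred, none of the 16 pericentromeres passed the test, beside 56.6% of regions called lower and 3.54% higher, and their median was 0.07. The range ran from -0.12 on chromosome 7 to 0.21 on chromosome 14. The pooled difference was 0.07 ± 0.08 (limma, adjusted p = 0.476). The untagged signal was itself raised there, at 1.70 over the pericentromeres against 1.03 over the arms. With the untagged signal subtracted, the pooled centred difference was 0.26 and passed the test as higher (limma, adjusted p = 0.00923), and 14 of 16 pericentromeres were higher, beside 23.9% of regions. On that scale 12 of 31 arms and 26 of 30 ends were lower, beside 41.6% of regions.

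The borders, 15 to 30 kb from the cohesin maximum, resembled the pericentromeres as a pool but varied more between chromosomes. Their pooled level was 3.96 and 4.34 in rad17 pds5-AID, against 4.73 and 5.04 in rad17, a difference of -0.73 ± 0.27 (limma, adjusted p = 0.00946). Without rad17 pds5-AID replicate 1 it was -0.54 and without rad17 replicate 2 -0.58, and neither passed (limma, adjusted p = 0.155 and 0.134). Of the 16 borders, 13 were lower, beside 97.3% of all regions. Without rad17 pds5-AID replicate 1, or without rad17 replicate 2, 2 were lower. The 3 that did not pass with all libraries were those of chromosomes 4, 7 and 16, at -0.51, -0.42 and -0.52. Centred, the borders of chromosomes 7, 4, 16 and 3 were higher, at 0.34, 0.25, 0.24 and 0.20, and those of chromosomes 11 and 1 were lower, at -0.36 and -0.21. These 4 were the only regions called higher on the centred scale, 3.54% of those tested, and the number of higher borders was 1 without rad17 replicate 1, 1 without its replicate 2 and 2 without rad17 pds5-AID replicate 2.

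Along the arms, Scc1 was lower in rad17 pds5-AID on each arm measured. The pooled level was 3.19 and 3.53 in rad17 pds5-AID, against 4.18 and 4.46 in rad17, a difference of -0.97 ± 0.27, 51.2% of rad17 (limma, adjusted p = 0.000864). Each of the 31 arms was lower, with a median of -0.97, beside 97.3% of all regions. The left arm of chromosome 3 was lowest at -1.26, followed by the right arms of chromosomes 14 and 1 at -1.08 and -1.05. The left arms of chromosomes 8 and 2 and the right arm of chromosome 16 were highest, at -0.81, -0.87 and -0.84. Without rad17 pds5-AID replicate 1 or without rad17 replicate 2, 25 of 31 passed. Centred, 25 of 31 arms were lower, with a median of -0.21, beside 56.6% of regions. The median single arm window, in contrast, had a centred difference of -0.01. Centred arm values therefore do not show a typical arm window below the rest of its library. The number of lower arms was 7 without rad17 pds5-AID replicate 1, 2 without rad17 replicate 1 and 4 without its replicate 2. It was 16 without pds5-AID replicate 1 or without its replicate 2. The pooled centred difference was -0.20 ± 0.07 (limma, adjusted p = 0.0266) and did not pass without rad17 pds5-AID replicate 1, rad17 replicate 1 or rad17 replicate 2, at -0.16, -0.19 and -0.21 (limma, adjusted p = 0.0987, 0.206 and 0.14), nor with the untagged signal subtracted, at -0.13 (limma, adjusted p = 0.0753).

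On the arms, the difference was larger in windows where cohesin is dense. Arm windows were ranked by Scc1 in a wild-type library with another tag (Pk), which took no part in the test. In the top 10%, called strong arm sites here, the level was 4.95 and 5.40 in rad17 pds5-AID, against 6.20 and 6.50 in rad17. The difference was -1.18 ± 0.27, 44.3% of rad17 (limma, adjusted p = 7.01e-05), and centred -0.41 ± 0.10 (limma, adjusted p = 0.00429). In the bottom 10%, the valleys, the level was 1.70 and 1.78 in rad17 pds5-AID and 2.19 and 2.43 in rad17, a difference of -0.57 ± 0.27 (limma, adjusted p = 0.0372). Leaving out any 1 of these 4 libraries, or either wild-type library, ended the call for the valleys, with values of -0.69 to -0.45.

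From the lowest to the highest decile of arm windows, the median difference was -0.62, -0.65, -0.68, -0.69, -0.70, -0.73, -0.78, -0.96, -1.14 and -1.22. It was thus nearly level up to the seventh step and larger in the top 3. The share of windows called lower was 37.5% in the lowest decile and 90.1% in the highest, beside 59.2% of all windows. Background signal moves with this order, since it makes up more of a low window. After the untagged signal was subtracted, the median difference was -1.002 in the lowest decile and -1.29 in the highest. Within each library, strong sites stood over valleys by 3.25 and 3.62 in rad17 pds5-AID, against 4.00 and 4.07 in rad17, without overlap. The difference was -0.60, and the two-sided exact permutation p was 0.33, the smallest possible.

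**Figure D3:**
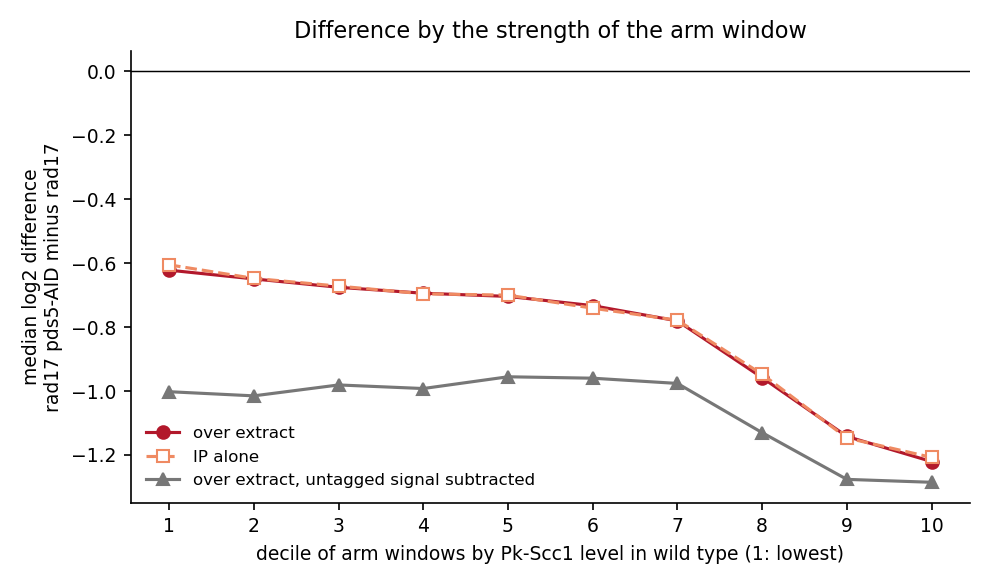
Median log2 difference of rad17 pds5-AID minus rad17 (vertical axis) in deciles of arm windows ordered by Pk-Scc1 in wild type (horizontal axis, 1 lowest), over extract (filled circles), with IP alone (open squares) and after subtraction of the untagged signal (grey triangles). Over extract the median goes from -0.62 in the lowest decile to -1.22 in the highest, and after subtraction from -1.002 to -1.29.

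Chromosome ends had the largest difference among the region classes away from the break. Over the outer 20 kb the pooled level was 2.73 and 2.91 in rad17 pds5-AID, against 4.11 and 4.33 in rad17. The difference was -1.40 ± 0.27, 37.9% of rad17 (limma, adjusted p = 2.23e-06), and centred -0.64 ± 0.07 (limma, adjusted p = 1.91e-05). Each of the 30 ends was lower, with a median of -1.48, beside 97.3% of all regions. After centring 26 were lower, with a median of -0.72, beside 56.6% of regions. The untagged level over the ends was 0.92. Relative to the arms of the same library, ends stood at -0.45 and -0.62 in rad17 pds5-AID, against -0.07 and -0.14 in rad17, without overlap. The difference was -0.43 with a two-sided exact permutation p of 0.33, the smallest possible.

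The ends were not alike. The left end of chromosome 6 stood at 2.83 and 2.69 in rad17 pds5-AID, against 4.88 and 4.87 in rad17, a difference of -2.11 or 23.1% of rad17, from 5 windows. The right end of chromosome 1 differed by -1.91 and the left end of chromosome 15 by -1.84. The smallest differences were at the left end of chromosome 9 (-0.71), the right end of chromosome 4 (-0.91) and the left end of chromosome 12 (-0.94). These 3 did not pass after centring. The left end of chromosome 9 also missed the threshold before centring without rad17 pds5-AID replicate 1 or rad17 replicate 2, at -0.46 and -0.55 (limma, adjusted p = 0.203 and 0.151), and the left end of chromosome 12, with 3 windows, without rad17 pds5-AID replicate 2, at -0.58 (limma, adjusted p = 0.0933).

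The distance profiles showed where these classes begin and end. Counted from the cohesin maximum, the difference was -0.53 at 2 to 5 kb, -0.80 at 10 to 15 kb, -0.73 at 20 to 30 and at 40 to 50 kb, -0.95 at 75 to 100 kb and -1.02 at 100 to 150 kb. Centred levels at 40 to 50 kb were 0.86 and 0.94 in rad17 pds5-AID and 0.89 and 0.85 in rad17, so the genotypes were interleaved there. At 100 to 150 kb they were 0.43 and 0.51 in rad17 pds5-AID and 0.74 and 0.72 in rad17, without overlap. Counted from the chromosome end, the difference was -1.40 at 0 to 5 kb, -1.59 at 5 to 10 kb, -1.31 at 20 to 30 kb, -1.13 at 30 to 40 kb and -1.04 at 40 to 50 kb, and it was -0.97 at 100 to 150 kb. The larger difference at the ends thus reached past the outer 20 kb.

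**Figure D4:**
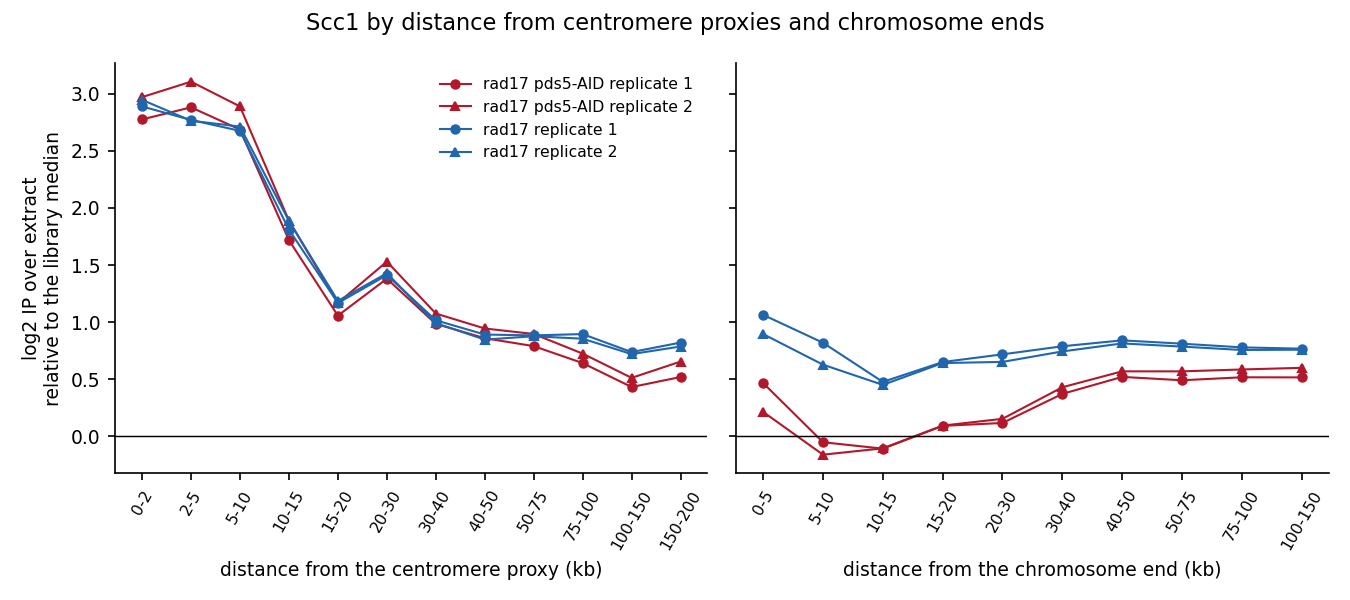
Centred level of HA-Scc1 (log2 of IP over extract relative to the library median) by distance from the cohesin maximum of each chromosome (left) and from the chromosome end (right), in kb, for each library of rad17 pds5-AID (red) and rad17 (blue). At 2 to 5 kb from the maximum rad17 pds5-AID stands at 2.88 and 3.11, against 2.77 and 2.76 in rad17, and at 5 to 10 kb from the ends rad17 pds5-AID stands at -0.05 and -0.16, against 0.82 and 0.63 in rad17.

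Away from the break, the difference resembled the one measured with Rad17 present. The pds5-AID minus wild-type difference was -0.40 over pericentromeres, -0.44 over borders, -0.73 over arms, -1.14 over ends and -0.59 for the genome level, the same order of classes as in rad17 cells. Across the 11441 windows over 100 kb from the break, or on other chromosomes, the 2 differences correlated at Pearson's r = 0.751 (Spearman's rho = 0.706), and with IP alone at r = 0.864. For the 197 windows closer to the break, r was 0.490. These are descriptions over windows, which are neighbours on shared chromosomes and not independent replicates. Difference-of-differences values for the pooled pericentromeres, borders, arms and ends were -0.29, -0.30, -0.23 and -0.26, each with an SE of 0.38, and none passed. Differences of this size are not detectable with that SE.

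**Figure D5:**
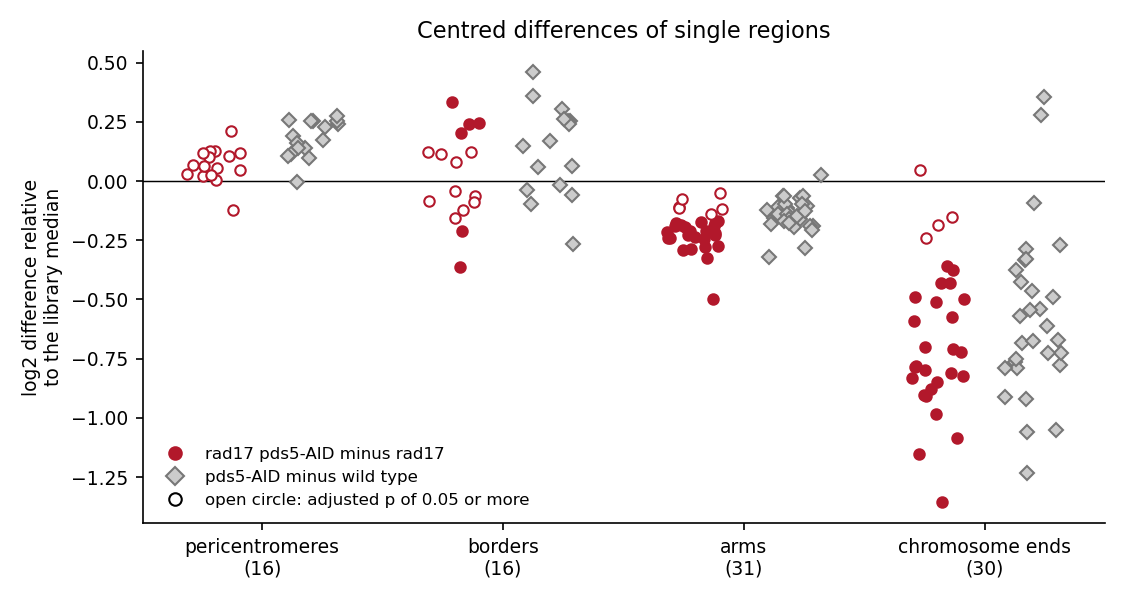
Centred log2 difference (vertical axis) of each pericentromere, border, arm and chromosome end for rad17 pds5-AID minus rad17 (red circles, left) and pds5-AID minus wild type (grey diamonds, right); filled circles have an adjusted p under 0.05 and sideways scatter has no meaning. Red circles run from -0.12 to 0.21 for pericentromeres, from -0.36 to 0.34 for borders, from -0.50 to -0.05 for arms and from -1.35 to 0.05 for ends.

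Lower windows were joined where at most 2 windows lay between them, which gave 690 stretches, the longest of 69 kb. Of these, 587 had 2 or more called windows. No gene is named for them, because the genome build was not given in the sources used here, and coordinates are those of the deposited windows. The deepest point of all lay at chromosome 13, 754001 to 755000. The level there was 1.35 and 2.28 in rad17 pds5-AID, against 5.36 and 5.35 in rad17, a difference of -3.55 ± 0.32 (limma, adjusted p = 1.49e-24). That p-value uses a spread shared by all windows and overstates what 2 libraries against 2 can show. In this window wild type stood at 3.17 and 3.62, pds5-AID at 2.28 and 3.01, uncut wild type at 3.09 and Pk-tagged Scc1 at 4.54 in rad17 and 2.56 in wild type. The rad17 libraries of both tags were thus the highest of these. The relative extract was 1.03 and 0.91 in rad17 pds5-AID and 0.87 and 0.86 in rad17, so the DNA itself was present in similar amounts. The window to its left was not kept for lack of extract coverage.

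At a second site rad17 stood below wild type instead of above it. At chromosome 16, 499001 to 500000, the level was 2.36 and 2.56 in rad17 pds5-AID, against 5.45 and 5.79 in rad17, a difference of -3.16 ± 0.32 (limma, adjusted p = 2.71e-19). Wild type stood at 6.14 and 6.56, uncut wild type at 5.86 and pds5-AID at 4.18 and 4.92. Both rad17 pds5-AID libraries lay below their own library median at both sites. The extract was 1.11 and 1.08 in rad17 pds5-AID and 1.04 and 0.89 in rad17.

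Of the 10 deepest stretches, 4 touched the outer 20 kb of a chromosome. Of the 11638 kept windows, 429 lay there, and 85.5% of these were called lower, beside 59.2% of all windows. The share among all stretches was not counted. On chromosome 2 the stretch from 1 to 15000 was deepest at 9001 to 10000, with levels of 3.40 and 3.67 in rad17 pds5-AID, against 6.67 and 6.51 in rad17, a difference of -3.06. On chromosomes 13, 15 and 8 the deepest windows were 13001 to 14000 (-2.84), 11001 to 12000 (-2.63) and 564001 to 565000 (-2.80). The remaining ones lay within arms. Chromosome 7 from 104001 to 126000 reached -2.85, chromosome 11 from 64001 to 101000 reached -2.71, chromosome 13 from 416001 to 428000 reached -2.65 and chromosome 16 from 302001 to 330000 reached -2.63. At the deepest windows of these 8 stretches the pds5-AID minus wild-type difference was also large, between -3.09 and -2.08.

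No stretch of 2 or more windows was higher before centring. Centred, 243 stretches were higher, counting single windows, and 82 of them had 2 or more called windows. The largest value was at chromosome 11, 47001 to 48000, where the level was 3.37 and 3.75 in rad17 pds5-AID, against 2.13 and 2.99 in rad17, and the centred difference was 1.76 ± 0.19 (limma, adjusted p = 0.000259). Uncentred it was 1.00 (limma, adjusted p = 0.00555), one of only 2 windows that were higher on that scale. The other was chromosome 6, 89001 to 90000, with 3.24 and 3.80 in rad17 pds5-AID and 2.56 and 2.82 in rad17, an uncentred difference of 0.83 and a centred one of 1.59. With Rad17 present these windows differed by -0.10 and -0.52 between pds5-AID and wild type. The next 8 had centred differences of 1.08 to 1.44, and their uncentred differences of 0.32 to 0.68 did not pass the test. Among these 8, the window on chromosome 3, within 301001 to 306000, missed the threshold when any 1 of the 4 libraries was left out, at 1.21 to 1.67 (limma, adjusted p = 0.0571 to 0.154). Those of chromosome 11, 415001 to 419000, and chromosome 13, 55001 to 60000, each missed it without 2 of these libraries, down to 0.95 and 0.83. The longest of them was chromosome 2 from 262001 to 277000, 39 kb from the cohesin maximum of that chromosome at its peak window.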

How the data were processed

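Libraries were assigned from their labels. The deposited signal is coverage (a signal) per 1 kb window, 12447 windows on 16 chromosomes, without a header. The series description states calibration with Candida glabrata, and the submitters' processing notes name Bowtie2, SAMtools, bedtools and MACS2 without versions or roles. The genome build was not given in the sources used here. Coverage in reads was taken by dividing each IP by its smallest value above 0, an assumption.

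Each IP was divided by its extract, set relative to its own median. Of these windows, 11638 were kept, those in which the relative extract averaged 0.25 to 4 across HA libraries. Through the uncut extract alone, 7 windows within 10 kb of the break passed this filter: the 5 at 0 to 5 kb right and 2 at 5 to 10 kb left. Windows received a pseudocount of 5% of the library median, so folds of low windows are understated. Regions used the log2 of mean IP over mean relative extract, with no pseudocount, and were centred on the median of single windows. The break was placed at the lowest 5-window running mean of cut over uncut extracts, chromosome 5, 119001 to 120000. Pericentromeres were centred on the highest 21-window mean of Pk-Scc1 in uncut wild type, a proxy for centromeres. The proxies were not checked against a centromere map, and that of chromosome 16 may be misplaced.

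limma 3.58.1 in R 4.3.3 was fitted to 9 HA IPs in 5 groups (4 residual degrees of freedom), with Benjamini-Hochberg adjustment over all windows or 113 regions and a threshold of 0.05. Uncentred windows, and uncentred regions, each shared 1 spread (infinite prior degrees of freedom), so their SE is common. A shift of a whole library is common to all its windows, so pooling windows adds no independent libraries. Uncentred p-values of windows and regions are therefore too small for 2 libraries against 2. Named stretches were joined across at most 2 windows, had at least 2 called windows, and were the 10 with the largest peak difference per direction and scale. On simulated windows lowered by 0.5, 1 and 2 on the log2 scale in the uncentred fit, 0%, 38.5% and 99.5% of 200 were recovered. Alternatives covered the extract, background, pseudocount, filter, samples, moderation, replicate block, centring, window size and left-out libraries; a filter on the cut extracts alone was added after seeing the data. The RAD17 and PDS5 loci were not placed, so the genotype labels were not checked. One HA label conflicts: the uncut strain's treatment entry names break induction, and its title was followed. The comparison, its region classes and its rules were chosen with earlier results of these data known.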

Additional observations from a re-analysis of the deposited data

Results flagged for a closer look

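The difference with the pds5-AID allele itself differed between cells lacking Rad17 and cells with Rad17 at the places below, by the limma test of the difference between both differences. Not centred, the class of 5 to 10 kb left of the break gave -1.316, that of 5 to 10 kb right gave -1.319 and that of 0 to 5 kb right gave -1.98. Centred, these classes gave -1.141, -1.144 and -1.805. With IP alone none of the 3 passed on either scale (limma, centred, adjusted p = 0.0551, 0.0884 and 0.0665), and windows at 0 to 5 kb right were kept only through the uncut extract. With the filter on the 8 cut libraries none passed before centring. Further classes on the left passed after centring: 10 to 20 kb gave -0.8551, 30 to 50 kb gave -0.5398, 50 to 75 kb gave -0.4813 and 75 to 100 kb gave -0.5888.

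Of 11638 windows, 2 were called before centring, 0.0172% of those tested. Chromosome 13, 754001 to 755000, differed by -2.797, and centred by -2.622, the 1 window called on that scale, 0.00859%. Chromosome 5, 121001 to 122000, 2 kb right of the break, differed by -2.073 and was kept only through the uncut extract. Without adjustment, 254 windows had a p under 0.05 before centring and 753 after it.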

How the results depend on the processing

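Of 1854 comparisons of a result with an alternative, 1657 (89.4%) were rated the same, and 10 reversed. A value was the same if it kept both direction and side of the threshold, and a count if it stayed within a set fold. Leaving out a pds5-AID or wild-type library cannot move a rad17 pds5-AID minus rad17 difference, only its p-value. The genome level cannot pass at all. This share therefore overstates how stable the results are. The uncentred count of windows, 6890, was 2352 with the extract as deposited, 1033 with each window's own spread and 1974 with windows of 5 kb, and 2109 to 7851 without single libraries. The centred count, 1793, was 3615 with IP alone, 3034 with only the 4 libraries, 547 with own spread and 585 to 3055 without single libraries. With windows of 5 kb, centred on their own median, it was 1188, of which 455 were lower and 733 higher, against 77.4% lower among the main calls. The difference of differences was called in 2 windows, against 5 with IP alone, 0 with the extract as deposited, 4 and 1 with pseudocounts of 1% and 20%, 1 with extracts of 0.5 to 2, 1 with the extract filter on the 8 cut libraries, an alternative chosen after seeing the data, 0 with own spread, 1 with windows of 5 kb and 0 to 9 without single libraries. With the extract as deposited, 0 of 16 pericentromeres, 2 of 16 borders, 25 of 31 arms, 28 of 30 ends and 9 of 13 break classes were lower before centring; with own spread these numbers were 0, 6, 31, 28 and 7. With own spread, no region passed for the difference of differences either.

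The pooled pericentromeres, centred, were 0.258 with the untagged signal subtracted and -0.027 to 0.169 without single libraries. The classes at 5 to 10 kb kept direction and call before centring under every alternative that gave them a value, at -1.87 to -1.05 on the left and -1.40 to -0.91 on the right; extracts of 0.5 to 2 left too few windows in them. The genome level was -0.997 to -0.609. The replicate block gave 9746 and 2493 calls over windows and 14 for the difference of differences, and over regions, for the difference of differences, 9 break classes and 3 ends before centring and 9 and 4 after it. The labels do not say that a number marks a shared day or batch, so numbers were not treated as pairs. Replicate 2 had the higher genome level in all 4 cut genotypes. Deviations of same-numbered libraries, over 2 numbers per pair of genotypes, correlated at r = 0.140 between rad17 pds5-AID and rad17 (0.0457 with IP alone), and over all pairs of cut genotypes at 0.0847 to 0.340 (-0.054 to 0.460 with IP alone).

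Signs reversed only for centred values that had not passed the test. With the untagged signal subtracted, 20 to 30 kb right of the break was 0.074, the pooled flank of 5 to 50 kb was 0.136 and the pericentromere of chromosome 7 was 0.049. Centred on arm windows, the borders were -0.0049. With the break placed 1 kb left, 20 to 30 kb right was 0.0085. Without single libraries, the flank was -0.098 to 0.037, 20 to 30 kb left -0.0012 to 0.164, 30 to 50 kb right -0.036 to 0.190 and the borders -0.038 to 0.094. The causes were not tested.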

Other observations

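The extracts give copy number by window. Only 5 windows differed by over 1.5-fold between both rad17 pds5-AID extracts and both rad17 extracts, and none lay within 15 kb of the break. Chromosome 3, 12001 to 13000, was higher, with a relative extract of 0.86 and 0.78 in rad17 pds5-AID, against 0.10 and 0.06 in rad17. The pds5-AID extracts held 0.11 and 0.15 there, and those of wild type 0.09 and 0.09. This window reached the filter's average only through the rad17 pds5-AID extracts, in which it is high. Chromosome 12, 13001 to 14000, was lower, with 0.24 and 0.52 in rad17 pds5-AID, against 1.16 and 1.33 in rad17. On chromosome 4, 3 adjoining windows from 1572001 to 1575000 were lower. The first, at 0.21 and 0.20 in rad17 pds5-AID, reached the filter's average only through the rad17 extracts, at 0.41 and 0.47. The count of 5 thus includes windows admitted by the group in which they are high. The last stood at 0.47 and 0.62 in rad17 pds5-AID, against 1.07 and 1.55 in rad17. In that last window the pds5-AID extracts held 0.51 and 0.50 and those of wild type 0.44 and 0.61, so the rad17 extracts were the high ones.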
